A study of Homo sapiens with 4 samples.

Results

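Expression of 52 lysosomal genes, for hydrolases, their activators and membrane proteins, was examined in pancreatic cancer cells depleted of the deacetylase SIRT1. The members are a fixed list of gene symbols with no threshold on a measured value, and all 52 were found among the 16878 genes of the deposited tables. The list was, however, chosen with earlier results of these data known. Transcripts were quantified by RNA-seq in PANC-1, a cell line established from a human pancreatic carcinoma. The groups were 2 Control libraries and 2 libraries from cells that received a small interfering RNA (siRNA) against SIRT1 (siSIRT1), all taken 48 h after transfection. Total RNA was used, and the agent given to the Control cells is named in the labels only as a control. Nothing in the labels says whether the 2 libraries of a group came from separate cultures, so the p-values below measure the spread between these libraries, which may be technical. The knockdown was transient, in a single cell line, and the study lists a single siRNA for SIRT1.

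Lysosomes are acidic compartments in which proteins, lipids, glycans and sulfated sugars are broken down by a set of soluble hydrolases. Most of these enzymes are made in the endoplasmic reticulum, tagged with mannose 6-phosphate in the Golgi and carried to the lysosome by receptors, whereas the membrane proteins protect the organelle and transport its products. Many lysosomal genes carry a short palindromic promoter element (the CLEAR element) that is bound by TFEB and TFE3, transcription factors held in the cytoplasm by the nutrient-sensing kinase complex mTORC1. Loss of single lysosomal enzymes causes the lysosomal storage diseases.

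The siRNA listed by the study for SIRT1 is given here as its sense strand, since it is the agent that separates the groups, and capitals mark the bases that pair with the seed of the guide strand.
siSIRT1: gugucaugguuCCUUUGCa
SIRT1 was at 10.5 and 10.3 FPKM (fragments per transcript kilobase relative to all fragments mapped in the library, a unit per length in which levels of different genes can be compared) in Control, against 1.80 and 2.05 FPKM in siSIRT1. Both siSIRT1 values lay far below both Control values, with a log2 fold change of -1.96 (standard error 0.11, adjusted p = 1.3e-05). The letters complementary to the guide seed (CCTTTGC) were present in the annotated 3' untranslated regions of 5 of the 52 lysosomal mRNAs (9.62%), those of IDS, IDUA, LAMP2, PPT1 and SCARB2, against 15.5% of 12070 tested genes. Among these 5, PPT1 rose, and IDS and LAMP2 fell. The part of such matches in these changes was not tested.

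Depth was similar in the 4 libraries, at an estimated 8700000 to 9190000 reads. Log-scale values correlated at 0.995 between the Control libraries, at 0.993 between the siSIRT1 libraries and at 0.967 to 0.971 across groups. Of 6 epithelial markers KRT8, KRT18 and KRT19 were abundant, while KRT7, EPCAM and CDH1 stayed at 11.2 FPKM or below, and the summed level of the list was 3975 to 4198 FPKM in Control and 4677 to 5070 FPKM in siSIRT1. The 9 measured macrophage and leukocyte markers summed to 22.6 to 25.1 FPKM in Control and 21.4 to 26.3 FPKM in siSIRT1, and 0 of the 3 tested were called by limma (1, CD14, at an unadjusted p under 0.05). Among them LYZ lay at 15.3 to 19.5 FPKM, CD14 at 3.17 to 5.49 FPKM and PTPRC at 0.97 to 1.29 FPKM, ITGAM went from 0.12 and 0.15 to 0.74 and 1.09 FPKM and FCER1G from 0.84 and 0.83 to 0.22 and 0.21 FPKM, and CSF1R, TYROBP, AIF1 and MRC1 were at or near 0 throughout. The 5 measured fibroblast markers summed to 2.95 to 4.21 FPKM in Control and 8.19 to 8.77 FPKM in siSIRT1, nearly all of it THY1, whereas PDGFRB, LUM, DCN and FAP were at or near 0, and the 4 endothelial markers summed to at most 1.2 FPKM in any library.

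Lysosomal genes moved in both directions after SIRT1 knockdown. Of the 52 members, 12 rose and 16 fell (limma on log2(FPKM + 1), adjusted p under 0.05), and 24 did not pass. Over all 12191 genes tested, 37.1% were called, 24.0% as higher and 13.1% as lower, so that the 23.1% of members that rose lay close to the background and the 30.8% that fell lay above it. Because the list was chosen with earlier results of these data known, these shares are a description, and their difference from the background was not tested. The median log2 fold change was -0.085 over the members and 0.074 over all genes tested. Control and siSIRT1 values were fully separated in 43 of 52 members (82.7%), against 69.0% of all genes. The balance of calls moved with the scaling between libraries. After median-of-ratios scaling 7 members rose and 19 fell (background 16.6% higher and 16.8% lower). After removal of the trend on transcript length 8 rose and 24 fell (background 18.8% and 19.6%). After quantile normalization 9 rose and 20 fell (background 18.7% and 16.4%), and after removal of the GC trend 8 rose and 23 fell (background 18.9% and 18.5%). Without Control replicate 2 the median log2 fold change was -0.065 over the members and 0.080 over all genes. Without Control replicate 1 these medians were -0.078 and 0.067.

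The changes were of moderate size. Ratios of the mean FPKM, siSIRT1 over Control, ran from 0.50 for ARSG to 1.74 for SMPD1. Mean levels over the 4 libraries ran from 1.03 to 1088.5 FPKM with a median of 46.9, against a median of 10.3 FPKM over all genes tested, and 7 members lay below 10 FPKM. An estimated 14 to 22963 reads lay behind single values. In bulk RNA, fewer expressing cells and less RNA per cell cannot be told apart.

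**Figure D1:**
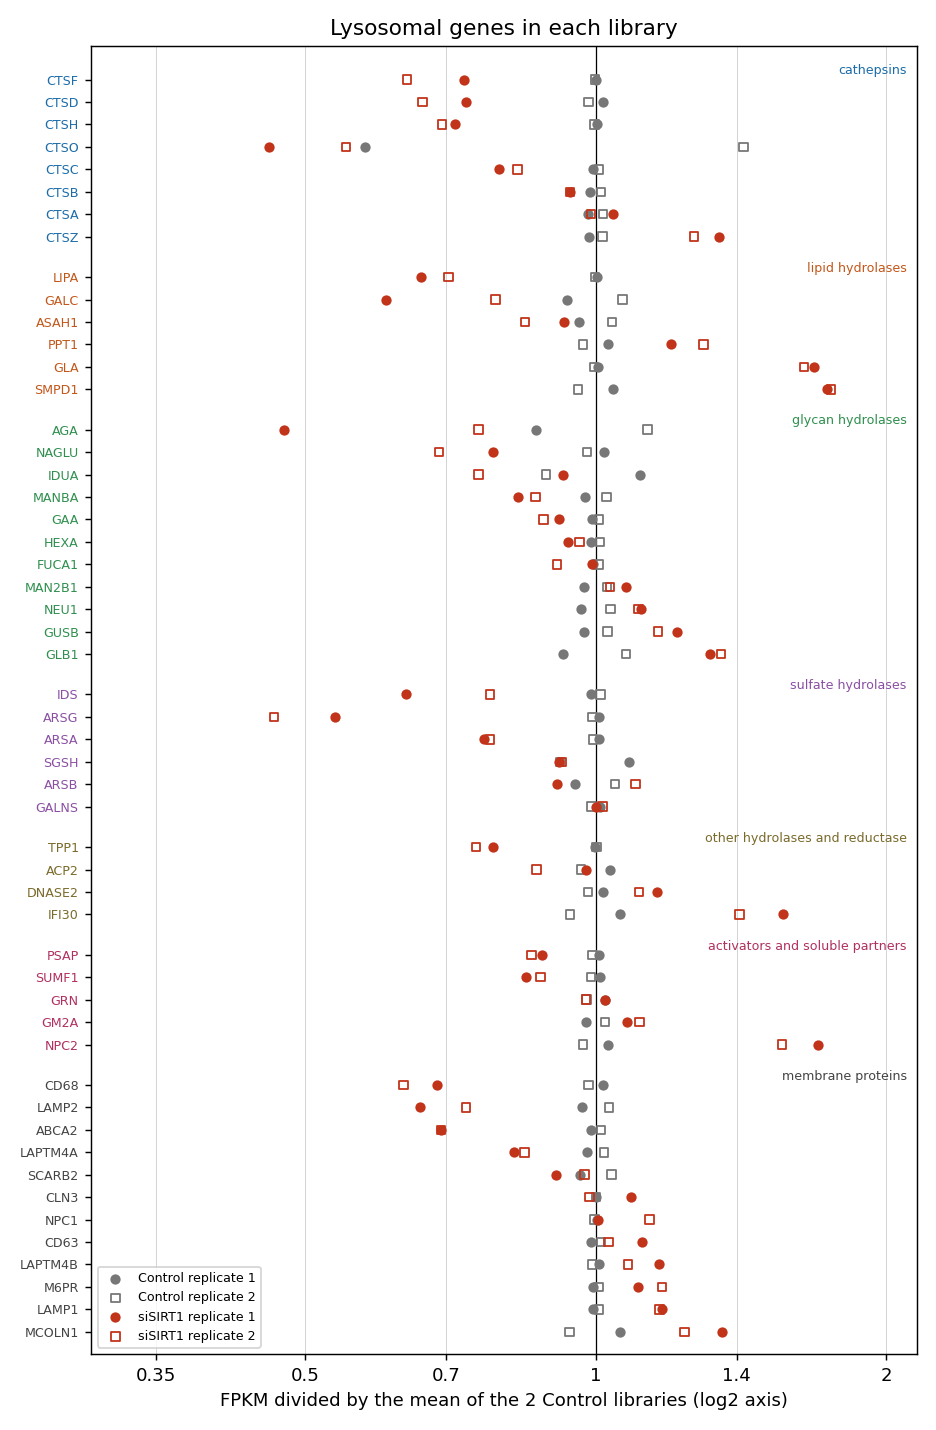
FPKM of each of the 52 lysosomal genes in each library, divided by the mean of the 2 Control libraries (log2 axis), grouped by role. Gray marks are Control and red marks siSIRT1, circles replicate 1 and squares replicate 2, and the vertical line is the Control mean. SMPD1, GLA and NPC2 lie farthest to the right, and CTSO, AGA and ARSG have the lowest siSIRT1 marks, with the Control marks of CTSO far apart.

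By role, the 8 cathepsins of the list and the sulfate hydrolases had more falls than rises in every scaling tried. The membrane proteins did too, but without further scaling only by 3 rises and 4 falls (24.0% and 13.1% of all genes). Of their 12 estimates in that fit 7 were higher. Their median log2 fold change was 0.071, against 0.074 over all genes tested. For the membrane proteins the split was 0 rises and 4 falls under median-of-ratios scaling (16.6% and 16.8% of all genes). With the replicate block it was even, at 4 and 4 (28.6% and 15.7% of all genes). The balance of the remaining groups was small or turned with the scaling. Among the 8 cathepsins 1 rose and 4 fell, with a median log2 fold change of -0.381. Of the cathepsins placed among the other lysosomal genes below, CTSK, CTSL and CTSV rose. Their log2 fold changes were 0.58, 0.55 and 0.49 (limma adjusted p = 0.00958, 0.00166 and 0.00667). CTSS was not called (0.13, adjusted p = 0.49). These genes are named after their values were seen, and the falls are those of the 8 listed cathepsins, not of the family. Of the 6 sulfate hydrolases 0 rose, 0 also at an unadjusted limma p under 0.05, and 3 fell (median -0.234), and the 6 that act on lipids or on lipid-modified proteins had 3 rises and 2 falls (median 0.076). The 11 glycan hydrolases had 2 rises and 1 fall (median -0.074), or 18.2% and 9.09% against the 24.0% and 13.1% of all genes. Their split turned to 1 rise and 3 falls under quantile normalization or median-of-ratios scaling, 1 and 2 with equal FPKM sums and 1 and 5 under the GC or the length correction. The activators and soluble partners had 1 rise and 1 fall among 5 (median -0.001), the other hydrolases 2 rises and 1 fall among 4 (median 0.031; 1 rise and 2 falls under the GC or the length correction), and the membrane proteins 3 rises and 4 falls among 12 (median 0.071). The medians of the cathepsins, sulfate hydrolases and glycan hydrolases were below 0 in all 11 alternative fits and without any single library, whereas those of the lipid hydrolases, the other hydrolases and the membrane proteins turned negative under median-of-ratios scaling and under the length correction, the latter 2 also under quantile normalization and the GC correction and that of the other hydrolases with equal FPKM sums and without Control replicate 2 or siSIRT1 replicate 1. These medians are descriptions with no test, and no difference between groups of genes was tested.

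**Figure D2:**
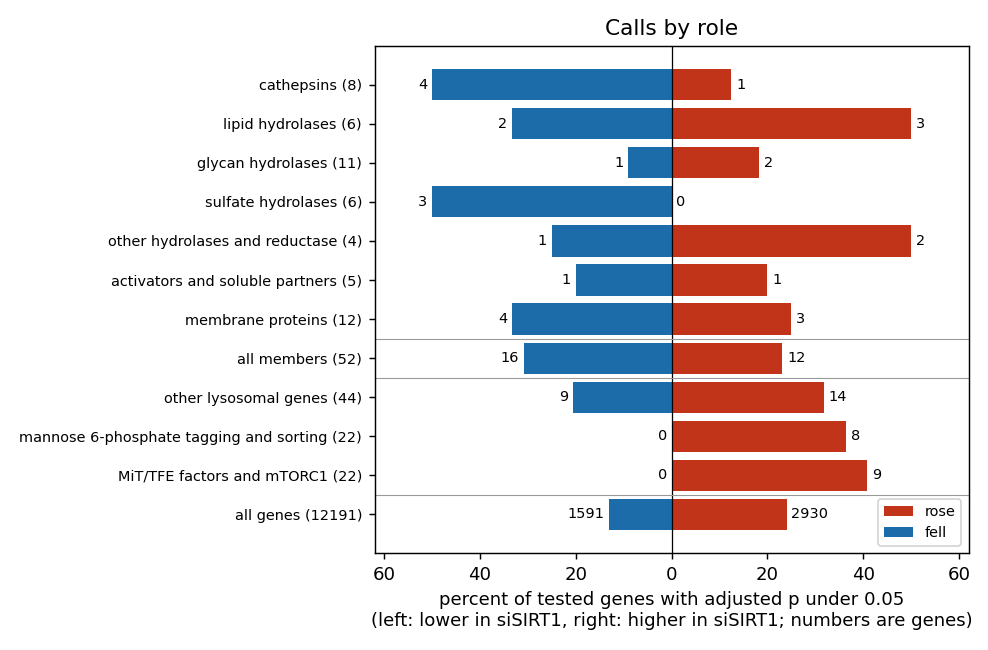
Percent of tested genes that fell (blue, left) or rose (red, right) in siSIRT1 at an adjusted p under 0.05, by role, for all 52 members, for 3 further gene lists and for all 12191 genes tested. The figures beside the bars are numbers of genes. Among the roles, the cathepsins, the sulfate hydrolases and the membrane proteins have their longer bars on the left. The lists for mannose 6-phosphate sorting and for mTORC1 have bars on the right alone.

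Cathepsins are the proteases of the lysosome. CTSD, its main aspartic protease (GRCh37 chromosome 11, 1773982 to 1785803, minus strand), was the most abundant of all 52 members, at 1305 and 1261 FPKM in Control against 940.5 and 848.0 FPKM in siSIRT1. Both siSIRT1 libraries were lower than both Control libraries, and mean FPKM fell by 30.3%, with a log2 fold change of -0.52 (standard error 0.08, adjusted p = 0.00117). CTSH, a cysteine protease with aminopeptidase activity (chromosome 15, 79213400 to 79241916), fell from 55.2 and 54.9 FPKM to 39.3 and 38.1 FPKM, with a log2 fold change of -0.50 (standard error 0.06, adjusted p = 0.000455). CTSF, a further cysteine protease (chromosome 11, 66330935 to 66336350), was at 29.9 and 29.8 FPKM in Control against 21.8 and 19.02 FPKM in siSIRT1. Its log2 fold change was -0.53 (standard error 0.08, adjusted p = 0.00141), and as for CTSH the 2 Control libraries differed far less from each other than from siSIRT1.

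Outside the rule for full values, CTSC, which activates the serine proteases of immune cells, fell to a ratio of 0.811 (adjusted p = 0.00512). CTSZ, a carboxypeptidase, rose, from 81.2 and 83.8 FPKM to 110.6 and 104.3 FPKM, with a log2 fold change of 0.38 (standard error 0.06, adjusted p = 0.00167); it and CTSC are named after their values were seen. CTSA, the carboxypeptidase that protects beta-galactosidase and sialidase, and CTSB, a major cysteine protease, had ratios of 1.02 and 0.941 and were not called. CTSO was weakly expressed, at 0.88 and 2.17 FPKM in Control against 0.70 and 0.84 FPKM in siSIRT1, with an adjusted p of 0.148 and an estimated 17 to 56 reads behind each value. Summed over the group, cathepsin FPKM was 1738.3 ± 23.3 (SD, n = 2) in Control against 1331.7 ± 75.4 in siSIRT1, a sum dominated by CTSD. The group median rested in part on Control replicate 2, without which it was -0.19 and 3 members fell.

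The lipid hydrolases held the 2 largest rises of the 52 members, in SMPD1 and GLA, and also falls, the largest in LIPA. SMPD1, the acid sphingomyelinase that turns sphingomyelin into ceramide (chromosome 11, 6411670 to 6416228), was at 17.5 and 16.1 FPKM in Control against 29.1 and 29.4 FPKM in siSIRT1. This was a rise of 74.5%, with a log2 fold change of 0.77 (standard error 0.07, adjusted p = 0.000154). GLA, the alpha-galactosidase A that is lost in Fabry disease (chromosome X, 100648261 to 100663000), rose from 46.6 and 46.2 FPKM to 78.0 and 76.3 FPKM. Its replicates lay within 2 FPKM of each other in both groups, and the log2 fold change was 0.72 (standard error 0.06, adjusted p = 6.4e-05). PPT1, which removes fatty acids from proteins and was the most abundant of the group (chromosome 1, 40538382 to 40562932), was at 92.4 and 87.1 FPKM in Control against 107.4 and 116.1 FPKM in siSIRT1, with a log2 fold change of 0.31 (standard error 0.06, adjusted p = 0.00594).

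LIPA, the acid lipase of cholesteryl esters and triglycerides (chromosome 10, 90973326 to 91174314), moved the other way. It was at 88.4 and 88.1 FPKM in Control against 58.1 and 62.1 FPKM in siSIRT1, a log2 fold change of -0.55 (standard error 0.06, adjusted p = 0.000295). GALC, which degrades galactosylceramide, fell as well, to a ratio of 0.697 (adjusted p = 0.026, range over the alternatives 0.00273 to 0.101). ASAH1, the acid ceramidase that acts on the product of SMPD1, had a ratio of 0.885 and was not called (adjusted p = 0.23).

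Of the 11 glycan hydrolases 8 were not called. NAGLU, an exoglycosidase of heparan sulfate (chromosome 17, 40688259 to 40696467), was at 23.0 and 22.1 FPKM in Control against 17.7 and 15.5 FPKM in siSIRT1. It was the member of this group that fell, with a log2 fold change of -0.42 (standard error 0.08, adjusted p = 0.00495). GLB1, the lysosomal beta-galactosidase (chromosome 3, 33038101 to 33138694), rose from 16.6 and 19.3 FPKM to 23.6 and 24.2 FPKM, with a log2 fold change of 0.40 (standard error 0.09, adjusted p = 0.00756). GUSB, the beta-glucuronidase (chromosome 7, 65425671 to 65447202), was at 32.5 and 34.4 FPKM in Control against 40.6 and 38.8 FPKM in siSIRT1. The adjusted p of GUSB was 0.0215, but it was called in only 3 of the 11 alternatives, with adjusted p from 0.00722 to 0.148, and its reads may be shared with pseudogene copies.

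The most abundant glycan hydrolase was the sialidase NEU1 (chromosome 6, 31825436 to 31830682), at 46.3 and 49.7 FPKM in Control against 53.5 and 53.2 FPKM in siSIRT1. The groups did not overlap, yet its adjusted p was 0.0985. The remaining 7 that were not called were GAA, the acid alpha-glucosidase of glycogen, HEXA, IDUA, MANBA, MAN2B1, FUCA1 and AGA, with ratios from 0.616 for AGA to 1.06 for MAN2B1. AGA, which cleaves the link between sugar and asparagine, was at 2.63 and 3.43 FPKM in Control against 1.44 and 2.29 FPKM in siSIRT1 (adjusted p = 0.0543), and it was called in 7 of the 11 alternatives.

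Sulfatases remove sulfate groups from glycosaminoglycans and sulfolipids and need SUMF1 to convert a cysteine of their active site. IDS, the iduronate sulfatase that is lost in Hunter syndrome (chromosome X, 148558519 to 148602635), was at 54.3 and 55.6 FPKM in Control against 34.9 and 42.7 FPKM in siSIRT1. Both siSIRT1 values were lower, with a wider spread than in Control, and the log2 fold change was -0.50 (standard error 0.09, adjusted p = 0.00328). IDS has a nearby pseudogene copy, and how shared reads were assigned is not stated. ARSA, the sulfatase of myelin sulfatide (chromosome 22, 51061182 to 51066601), fell from 24.6 and 24.3 FPKM to 18.7 and 19.01 FPKM, with a log2 fold change of -0.36 (standard error 0.07, adjusted p = 0.00459).

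ARSG, a sulfatase of heparan sulfate (chromosome 17, 66255323 to 66418872), was at 1.39 and 1.37 FPKM in Control against 0.74 and 0.64 FPKM in siSIRT1, which rests on an estimated 14 to 31 reads. The log2 fold change of -0.49 (standard error 0.14, adjusted p = 0.0227) understates its ratio of 0.50, because of the added 1 FPKM. GALNS, the most abundant sulfatase (chromosome 16, 88880142 to 88923378), was at 62.9 and 61.6 FPKM in Control against 62.3 and 63.3 FPKM in siSIRT1, with an adjusted p of 0.891. ARSB, which acts on dermatan sulfate, and SGSH, the heparan N-sulfatase, had ratios of 1.01 and 0.920 and overlapping groups. SUMF1 itself was at 14.6 and 14.3 FPKM in Control against 12.2 and 12.6 FPKM in siSIRT1. It did not pass (adjusted p = 0.0868) and was called in 6 of the 11 alternatives. Leaving out Control replicate 1 left IDS as the single sulfatase that fell, and leaving out Control replicate 2 left 2.

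Among the activators and soluble partners, NPC2, the carrier that hands cholesterol to NPC1 (chromosome 14, 74942895 to 74960880), had the largest change. It was at 68.2 and 64.2 FPKM in Control against 112.4 and 103.3 FPKM in siSIRT1, a rise of 62.9% with a log2 fold change of 0.70 (standard error 0.07, adjusted p = 0.000145). Its membrane partner NPC1 was at 21.8 and 21.7 FPKM in Control against 21.9 and 24.7 FPKM in siSIRT1, with an adjusted p of 0.408; the difference between the changes of NPC1 and NPC2 was not tested. PSAP, the precursor of the saposins that present sphingolipids to GLA, GALC, ARSA and others (chromosome 10, 73576055 to 73611008), was at 800.3 and 788.7 FPKM in Control against 698.7 and 681.6 FPKM in siSIRT1. PSAP fell by 13.1%, at a log2 fold change of -0.20, and its adjusted p of 0.0358 ranged from 7.01e-05 to 0.0939 over the alternatives. GM2A, the activator of HEXA, and GRN, the progranulin precursor, had ratios of 1.09 and 1.00 and were not called.

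TPP1, a tripeptidyl peptidase and the most abundant of the other hydrolases (chromosome 11, 6633999 to 6640679), fell. It was at 157.6 and 158.3 FPKM in Control against 123.5 and 118.7 FPKM in siSIRT1, with a log2 fold change of -0.38 (standard error 0.06, adjusted p = 0.00119). IFI30, the interferon-inducible thiol reductase that unfolds antigens for degradation (chromosome 19, 18283972 to 18288927, plus strand), rose from 48.3 and 42.8 FPKM to 71.2 and 64.1 FPKM, with a log2 fold change of 0.56 (standard error 0.08, adjusted p = 0.000962). DNASE2, the acid nuclease of DNA (chromosome 19, 12986023 to 12992409), was at 70.1 and 67.6 FPKM in Control against 79.6 and 76.3 FPKM in siSIRT1. Although its adjusted p was 0.0457, DNASE2 was called in 2 of the 11 alternatives. The acid phosphatase ACP2 had a ratio of 0.922 and was not called (adjusted p = 0.294).

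Membrane proteins moved in both directions. CD68, a heavily glycosylated protein of the lysosomal membrane that also serves as a macrophage marker (chromosome 17, 7482809 to 7485429), was at 63.0 and 60.8 FPKM in Control against 42.3 and 39.1 FPKM in siSIRT1. CD68 fell by 34.2%, with a log2 fold change of -0.59 (standard error 0.07, adjusted p = 0.0003). The macrophage and leukocyte list given above, with LYZ, CD14 and PTPRC detected and 4 of 9 genes at or near 0, kept overlapping sums in the groups, and its part in the fall of CD68 was not tested. LAMP2, a main glycoprotein of the membrane with a role in autophagy (chromosome X, 119560003 to 119603220), fell from 75.9 and 80.9 FPKM to 51.5 and 57.5 FPKM, with a log2 fold change of -0.52 (standard error 0.07, adjusted p = 0.000868). ABCA2, a lipid transporter (chromosome 9, 139901686 to 139923367), was at 20.5 and 21.0 FPKM in Control against 14.4 and 14.3 FPKM in siSIRT1. Its log2 fold change was -0.50 (standard error 0.07, adjusted p = 0.00119). The remaining fall was that of LAPTM4A (ratio 0.833, adjusted p = 0.00947).

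CD63, a tetraspanin and the most abundant of the membrane group (chromosome 12, 56119107 to 56123491), was at 345.6 and 354.3 FPKM in Control against 390.5 and 360.6 FPKM in siSIRT1, with an adjusted p of 0.257. The 3 rises of the group were those of LAMP1, MCOLN1 and M6PR, which are named after their values were seen. LAMP1, the paralog of LAMP2, was at 164.8 and 167.2 FPKM in Control against 194.3 and 193.3 FPKM in siSIRT1 (log2 fold change 0.22, adjusted p = 0.0136). MCOLN1, the calcium channel TRPML1, had a ratio of 1.29 (adjusted p = 0.0144), and the cation-dependent mannose 6-phosphate receptor M6PR had a ratio of 1.14 (adjusted p = 0.0453). All 3 rises were lost under median-of-ratios scaling, where 0 membrane proteins rose (1 at an unadjusted limma p under 0.05) and 4 fell. SCARB2, CLN3 and LAPTM4B had ratios of 0.941, 1.04 and 1.12 and were not called.

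**Figure D3:**
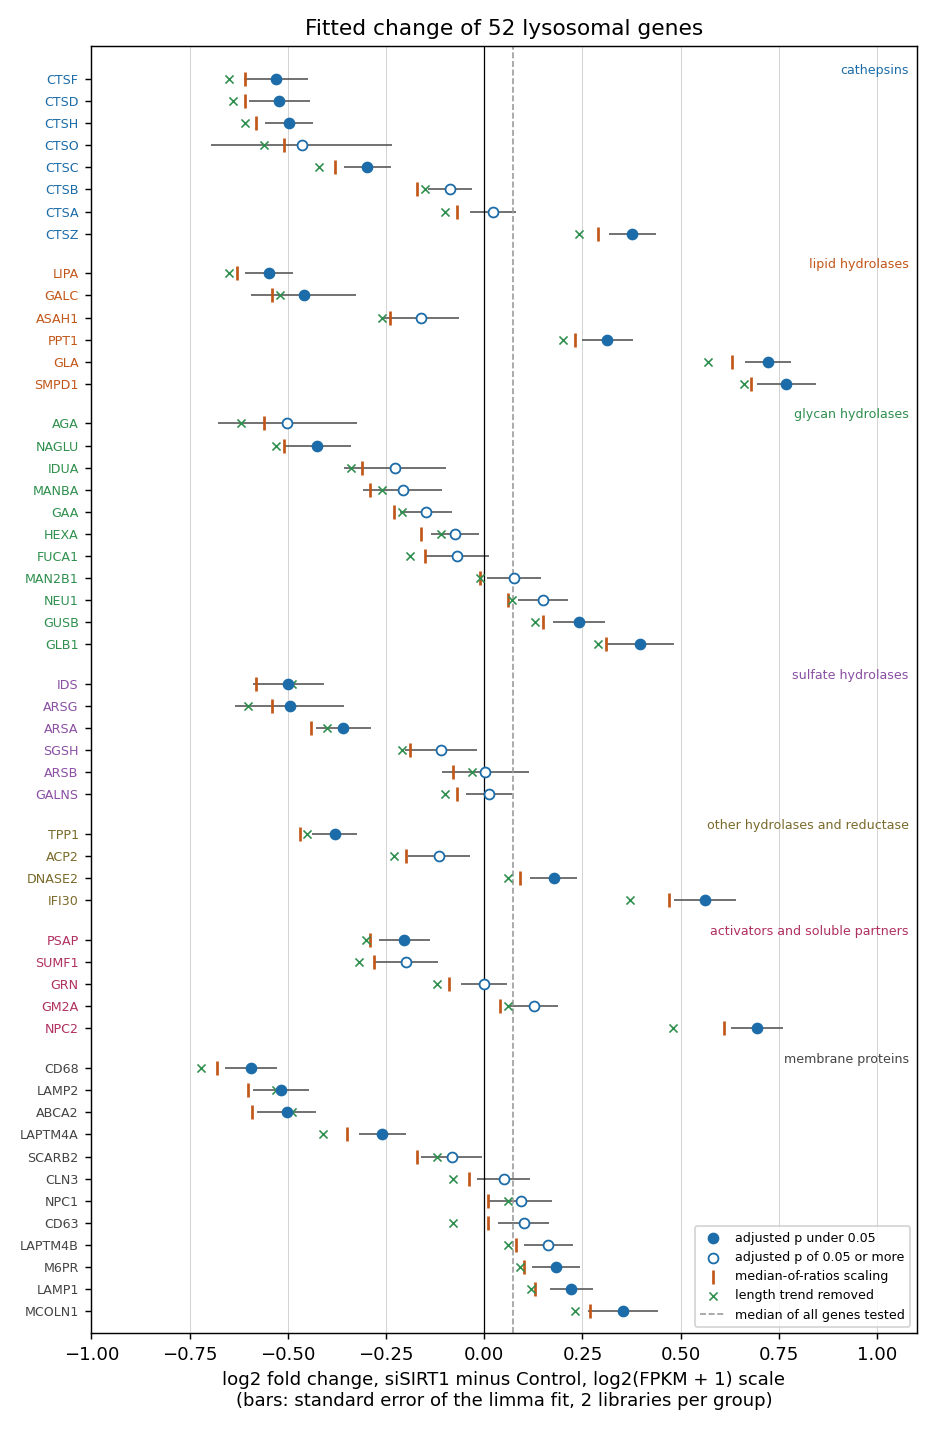
Fitted log2 fold change of each lysosomal gene, siSIRT1 minus Control on the log2(FPKM + 1) scale, by role. Circles are the limma estimates with their standard errors (2 libraries per group), filled where the adjusted p was under 0.05, orange bars and green crosses are the estimates after median-of-ratios scaling and after removal of the length trend, and the dashed line is the median of all genes tested at 0.074. Both corrections shift most members to the left, and CTSF, CTSD, CTSH, LIPA, CD68 and LAMP2 stay near or below -0.5.

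Across the alternatives, 20 of the 28 called members were called in all 11, and 14 of these were also called without any single library. The 5 that rose in this way were CTSZ, GLA, SMPD1, NPC2 and IFI30, and the 9 that fell were CTSF, CTSH, LIPA, NAGLU, IDS, TPP1, LAMP2, CD68 and ABCA2. In these fits the estimates of 0 called members and of 8 that were not called changed sign. CTSD was called in all 11 alternatives but not without Control replicate 1.

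The promoters of the called members that hold the E-box at the heart of the CLEAR element follow, because this is the element through which TFEB and TFE3 act on lysosomal genes. RefSeq promoter windows (assembly GRCh38.p14, 250 bases before to 50 bases after a start) were given for 41 of the 52 members. The letters TCACGTG were searched on both strands. They lay in a window of 13 of the 41 members (31.7%), against 7.32% of 9984 tested genes and 3.71% of 35116 windows. The 8-letter palindrome TCACGTGA, which contains these letters, lay in 6 members (14.6%), CLN3, CTSA, GAA, GALNS, LAMP1 and MCOLN1, against 2.29% of tested genes and 0.98% of windows. The called members with TCACGTG are shown, each from the first match to the last with 15 flanking bases on each side, capitals marking TCACGTG, its reverse complement or the palindrome.
LAMP1 promoter (chr13:113297031-113297259, plus strand): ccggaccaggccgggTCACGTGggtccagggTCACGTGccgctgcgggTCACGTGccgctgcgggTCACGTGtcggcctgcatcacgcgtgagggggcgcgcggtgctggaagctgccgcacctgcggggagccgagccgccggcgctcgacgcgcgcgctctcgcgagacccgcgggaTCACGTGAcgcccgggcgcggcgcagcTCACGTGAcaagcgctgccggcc
MCOLN1 promoter (chr19:7522567-7522631, plus strand): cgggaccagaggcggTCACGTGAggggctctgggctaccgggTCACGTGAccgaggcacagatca
M6PR promoter (chr12:8949469-8949505, minus strand): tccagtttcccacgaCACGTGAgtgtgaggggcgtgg
IFI30 promoter (chr19:18173581-18173617, plus strand): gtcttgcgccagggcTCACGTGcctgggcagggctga
CTSD promoter (chr11:1763953-1763989, minus strand): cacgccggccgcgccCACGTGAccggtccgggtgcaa
CTSF promoter (chr11:66568708-66568744, minus strand): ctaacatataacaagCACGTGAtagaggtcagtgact

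The first 4 of these genes rose and the last 2 fell in siSIRT1, out of 13 members with the letters, against 24.0% and 13.1% of all genes tested. Under median-of-ratios scaling the rises of LAMP1, MCOLN1 and M6PR were lost and that of IFI30 was kept, and M6PR was called in 2 of the 11 alternatives. LAMP1 held 6 matches, 2 of them the palindrome, and MCOLN1 held 2, both the palindrome. The median log2 fold change was 0.022 over the 13 members with TCACGTG and -0.076 over the members with a window but without it. Over all tested genes the corresponding medians were 0.061 and 0.081. A match describes the letters in the window, and binding was not measured here.

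Further gene lists place these members in their pathway. Of 44 other lysosomal genes tested, 14 rose and 9 fell, with a median log2 fold change of 0.10. This was 31.8% and 20.5%, against 24.0% and 13.1% of all genes tested. Under quantile normalization or median-of-ratios scaling 12 rose and 10 fell (27.3% and 22.7%), with medians of 0.014 and 0.013. Over all genes 18.7% rose and 16.4% fell under the former, and 16.6% and 16.8% under the latter. The 2 with the smallest adjusted p both fell. TPCN1, an endolysosomal cation channel, went from 53.2 and 55.7 FPKM to 23.4 and 23.1 FPKM (log2 fold change -1.19, adjusted p = 9e-06). TMEM106B, a protein of the lysosomal membrane, went from 34.1 and 37.7 FPKM to 12.5 and 14.4 FPKM (log2 fold change -1.35, adjusted p = 2.4e-05). The largest change of the list, named after its values were seen, was the rise of GPNMB, a transmembrane glycoprotein of lysosomes and melanosomes, from 0.26 and 0.42 FPKM to 3.09 and 3.59 FPKM (log2 fold change 1.70, adjusted p = 8.22e-05), with an estimated 6 and 10 reads behind the Control values. Because of the added 1 FPKM, this log2 fold change understates the GPNMB ratio of 9.82.

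Of 22 genes that tag hydrolases with mannose 6-phosphate or sort them, 8 rose (36.4%) and 0 fell by limma, with a median of 0.168. Over all genes tested 24.0% rose and 13.1% fell. At an unadjusted limma p under 0.05, 2 of the list were lower. All 8 rises were of genes for sorting. The genes for tagging, GNPTAB, GNPTG and NAGPA, are named after their values were seen. Their ratios were 0.826, 0.854 and 1.07, and none was called (limma adjusted p = 0.112, 0.0639 and 0.392). GNPTG was called as lower in 8 of the 11 alternatives. Under median-of-ratios scaling 8 rose and 3 fell (36.4% and 13.6%, against 16.6% and 16.8% of all genes). Without Control replicate 1 the list median was 0.18. SORT1, the sorting receptor sortilin, rose from 9.02 and 8.33 FPKM to 13.6 and 15.1 FPKM (log2 fold change 0.67, adjusted p = 0.000968), and AP1M1, a subunit of the AP-1 coat adaptor, rose from 30.8 and 28.7 FPKM to 40.5 and 40.6 FPKM (log2 fold change 0.43, adjusted p = 0.00145). IGF2R, the larger mannose 6-phosphate receptor, was at 51.8 and 53.7 FPKM in Control against 43.0 and 51.8 FPKM in siSIRT1 (adjusted p = 0.195).

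Of 22 genes for the TFEB family and for mTORC1 with its lysosomal anchors, 9 rose (40.9%) and 0 fell by limma, with a median of 0.159. Over all genes tested 24.0% rose and 13.1% fell. At an unadjusted limma p under 0.05, 1 of the list was lower. With median-of-ratios scaling 6 rose and 1 fell (27.3% and 4.55%, against 16.6% and 16.8% of all genes). With no filter on low values 5 rose (22.7%, against 13.7% of all genes). The list median was 0.17 without Control replicate 1 and 0.191 without Control replicate 2. LAMTOR5, a subunit of the Ragulator complex on the lysosomal surface, rose from 25.8 and 19.9 FPKM to 42.9 and 39.6 FPKM (log2 fold change 0.84, adjusted p = 0.000711). RRAGD, a Rag GTPase, rose from 0.69 and 0.77 FPKM to 2.31 and 2.49 FPKM (log2 fold change 0.97, adjusted p = 0.000846). TFEB was at 3.30 and 3.97 FPKM in Control against 5.43 and 5.88 FPKM in siSIRT1, with a log2 fold change of 0.52 (standard error 0.12, adjusted p = 0.0107), whereas TFE3 was at 27.3 and 25.2 FPKM in Control against 30.3 and 28.2 FPKM in siSIRT1 (adjusted p = 0.154).

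The summed level of the 52 members was 4846.4 ± 33.2 FPKM (SD, n = 2) in Control against 4399.9 ± 124.7 FPKM in siSIRT1, a ratio of 0.908. Lysosomal mRNA made up 1.21% of all FPKM in both Control libraries and 1.05% and 1.06% in the siSIRT1 libraries. Without CTSD and PSAP, the most abundant members, the ratio was 1.02, with sums of 2769.1 ± 6.4 and 2815.5 ± 47.2 FPKM.

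Fold changes varied with the length of the transcript. Across the members Pearson's r between log2 fold change and log2 length was -0.41 (Spearman's rho -0.26, n = 52 genes that share the same 4 libraries), against -0.16 (rho -0.18) across 12137 genes tested. Of the 5 members under 1500 bases, GLA, NPC2 and IFI30 rose and LAPTM4A fell, with a median of 0.56 against 0.18 over all tested genes of that length. Among the 16 members of 3000 bases or more, 0 rose by limma (1 at an unadjusted p under 0.05) and 6 fell, with a median of -0.12 against 0.04. Over all genes tested, of any length, 24.0% rose and 13.1% fell. The shares over all genes of this length were not counted. With the length trend of each library removed, GLA, NPC2 and IFI30 remained higher and IDS, ABCA2 and LAMP2 remained lower, each with an adjusted p under 0.05. The part of length in the individual changes was not tested beyond this fit.

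**Figure D4:**
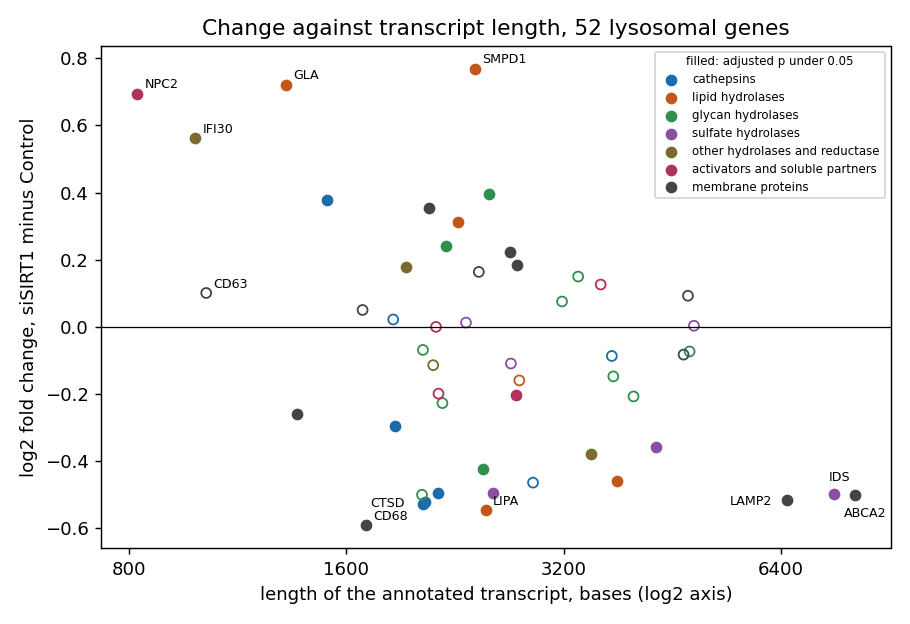
Log2 fold change (siSIRT1 minus Control) against the length of the annotated transcript in bases (log2 axis) for the 52 lysosomal genes, colored by role and filled where the adjusted p was under 0.05. The short transcripts of NPC2, IFI30 and GLA lie high, and the longest ones, ABCA2, IDS and LAMP2, lie near -0.5.

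In the GRCh37 annotation 23 of the 52 members overlap another protein-coding gene, 16 of them a gene on the opposite strand. Of the 23, 11 were called, against 28 of all 52 members and 37.1% of all genes tested. Among the called members with an overlap, LIPA overlaps the IFIT genes, GLA overlaps RPL36A and NPC2 overlaps ISCA2. Whether the counting used strand is not stated, so reads from these genes and their partners cannot be told apart from the tables.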

How the data were processed

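RNA-seq was carried out on 4 PANC-1 libraries, 2 Control and 2 siSIRT1. The authors deposited a table of FPKM values per library for 16878 genes, rounded to 2 decimals, each gene named by an Entrez identifier and a symbol. The submitters' processing notes name HISAT, Bowtie2, RSEM and ChIPseeker without roles or versions. The genome build, the use of strand and the assignment of shared reads are not given in the sources used here. FPKM divides by transcript length and library total, so strong changes of abundant genes shift all other values.

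Symbols were matched to RefSeq through the identifiers (16846 of 16878). Coordinates, lengths and 3' ends came from GENCODE annotation lifted to GRCh37, promoters from RefSeq (GRCh38.p14). Differences were tested with limma 3.58.1 in R 4.3.3 (lmFit, eBayes with a trend) on log2(FPKM + 1) for 12191 genes (mean FPKM 1 or higher), two-sided, with Benjamini-Hochberg adjustment over all of them and a threshold of 0.05. The added 1 FPKM shrinks the log2 fold changes of genes with low values in a group, among them SIRT1, GPNMB and RRAGD. Python 3.11.15 was used for summaries. On simulated data the fit recovered nearly all large changes but fewer of the smallest ones, and the share of false calls was above the threshold of 0.05. Depth was estimated from the steps of low FPKM values in 67 to 75 single-exon genes per library, with a length offset of 80 bases. Numbers of reads are therefore approximate.

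The members, their roles and the pathway and marker lists were chosen with earlier results of these data known. Full values were given, in each role, for the most abundant member and for up to 3 called members with the smallest adjusted p, and in each pathway list for the 2 called genes with the smallest adjusted p, besides IGF2R, TFEB, TFE3 and SIRT1. Other members are given by ratios, or by values where the text says that they were picked later. CTSO, AGA, SUMF1 and NPC1 also carry their values, chosen after these were seen. CTSW and ACP5 were below the filter, and TFEC was not among the genes of the tables. The alternatives were quantile normalization, a pseudocount of 0.1, testing without the filter, median-of-ratios scaling, equal FPKM sums, removal of the GC or the length trend (lowess span 0.3), eBayes without the trend, the replicate number as a block, and leaving out each library.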

Additional observations from a re-analysis of the deposited data

How the results depend on the processing

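The 28 calls among members became 17 to 29 when a library was left out, 6 to 13 of them higher, and all genes called became 2691 to 4608; the remaining library of a group was then assumed to vary like the other group. With median-of-ratios scaling 7 members rose. Other numbers of calls over all members, and the total over all genes, stayed within 1.5 times the reported ones, but not those within roles. Over all genes, those called as lower went from 1591 to 2388 under the length correction and to 2519 with the replicate block added. Falls of glycan hydrolases went from 1 to 3 under quantile normalization and median-of-ratios scaling, to 5 under the GC or length correction and to 6 under the GC correction with the replicate block. Rises of membrane proteins went from 3 to 0 under median-of-ratios scaling and to 1 under the GC correction, the length correction, no filter or eBayes without the trend. Rises in the TFEB and mTORC1 list went from 9 to 5 without the filter, where the share of all genes that rose went from 24.0% to 13.7%. Many group medians of log2 fold changes, though not all, moved by more than the spread between replicates, and those that did are given here. The cathepsin median under quantile normalization, -0.434 against -0.381, lay within its spread of 0.06. Under median-of-ratios scaling the medians were -0.45 for cathepsins, -0.01 for lipid, -0.16 for glycan and -0.32 for sulfate hydrolases, -0.09 for activators, -0.06 for other hydrolases and -0.01 for membrane proteins. After removal of the length trend they were -0.49, -0.03, -0.19, -0.31, -0.12, -0.09 and -0.08 in the same order, and after removal of the GC trend -0.44, 0.01, -0.16, -0.31, -0.07, -0.07 and -0.01. Quantile normalization gave 0.01 for lipid, -0.15 for glycan and -0.31 for sulfate hydrolases, -0.05 for other hydrolases and -0.02 for membrane proteins. Equal FPKM sums gave 0.02 for lipid, -0.14 for glycan and -0.29 for sulfate hydrolases, -0.06 for activators and 0.01 for membrane proteins. Leaving out a library gave -0.40 to -0.19 for cathepsins, -0.12 to -0.06 for glycan hydrolases, -0.29 to -0.20 for sulfate hydrolases and 0.01 to 0.07 for membrane proteins. The causes were not tested.

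Estimates of members that were not called crossed 0. CTSA was at -0.04 under quantile normalization, -0.07 under median-of-ratios scaling, -0.04 with equal sums, -0.08 without the GC trend, -0.10 without the length trend and -0.02 to 0.06 when a library was left out. MAN2B1 was at -0.01 under quantile normalization, median-of-ratios scaling and the length correction and at -6.8e-05 under the GC correction. GALNS was at -0.08, -0.07, -0.05, -0.07 and -0.10 under quantile normalization, median-of-ratios scaling, equal sums, the GC correction and the length correction, and ARSB at -0.06, -0.08, -0.05, -0.08 and -0.03 in that order. CLN3 was at -0.04, -0.04, -0.01, -0.04 and -0.08 in that order, and CD63 at -0.0022 under quantile normalization and -0.08 under the length correction. Leaving out a library gave -0.0018 to 0.03 for GALNS, -0.12 to 0.13 for ARSB, -0.22 to 0.002 for SGSH, -0.03 to 0.03 for GRN and -0.02 to 0.12 for CLN3.

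The replicate numbers in the titles pair libraries across the groups, but nothing says that a number marks a shared culture or day. Same-numbered libraries deviated together with a correlation of 0.123 over genes in 2 pairs. With the replicate number as a block 31 members were called (13 higher, 18 lower) and 5393 genes in all, and SIRT1 stayed at -1.96. The length and GC corrections combined with the block were chosen after seeing the data, and gave 33 and 32 called members and the same group medians and estimates as the corrections alone, -0.49 and -0.44 for cathepsins.

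Depth limits the members below 10 FPKM most: the lowest value of a member, in ARSG, rested on about 14 reads. With 2 libraries per group, 24 members that were not called cannot be said to be unaltered.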
